A study of Mus musculus with 10 samples.

Results

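The genes described here are 10 genes of autophagy and mitophagy, Map1lc3a, Map1lc3b, Gabarapl1, Bnip3, Bnip3l, Ulk1, Atg12, Ctsl, Sqstm1 and Becn1, in the gastrocnemius of fasted mice. They were taken by name, with every probe set that the platform annotation assigns to 1 gene. This rule gave 23 probe sets of 9 genes among 45037 tested. Bnip3l has 3 probe sets that are annotated to both Bnip3l-ps and Bnip3l, so no value is given for it. The samples were 10 Affymetrix Mouse Genome 430 2.0 arrays of gastrocnemius, the large calf muscle, 5 from mice deficient in Skn-1 (Pou2f3) and 5 from wild-type mice. Pou2f3 encodes a POU transcription factor required for taste receptor cells and tuft cells. All mice were male, 12 to 16 weeks old, on chow, and fasted for 18 h before dissection. The strain label of both genotypes is mixed 129 x C57BL/6J, and the deficient line was bred to C57BL/6J through more than 10 generations. No fed group was used here, so the values show differences between genotypes in fasted muscle and not the response to fasting.

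Autophagy delivers cytoplasm and organelles to lysosomes, and in muscle it is known to be engaged by fasting. The ULK1 kinase starts it, the Beclin 1 lipid kinase complex nucleates a membrane, and an ATG12 conjugate helps to attach ATG8 proteins to lipid. The ATG8 proteins (the LC3 and GABARAP families) hold cargo receptors such as p62, encoded by Sqstm1, and the mitochondrial receptors BNIP3 and BNIP3L, and cathepsins such as CTSL digest what arrives. Several of these genes are known targets of FoxO factors in muscle, and many lysosomal genes are targets of TFEB.

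The deposited values, 4.93 to 13.96, were taken to be on a log2 scale. Array medians lay between 6.23 and 6.24. Of all probe sets, 86.2% had an SD over the 10 arrays at or below 0.01 and are called low-variation here; their median SD was 0.000189, and a difference between groups in them has no size that can be read. The 6209 others had a median SD of 0.168. The single Pou2f3 probe set was low-variation at 6.47 in both genotypes and does not check the labels. Genes of skeletal muscle were bright, at 11.78 to 13.96 for all 8 measured markers. Several arrays also carried genes of other tissues. The mean of hair keratin and hair shaft genes, 7 of 7 measured, was 8.41 in wild type 1 and 7.63 in wild type 3, against 5.81 to 5.93 in the other 8 arrays. Epidermal genes reached 8.07 in knockout 4 and 7.69 in knockout 1, and lymphocyte genes 7.78 in wild type 3 and 7.70 in knockout 5. These are means over genes whose brightest probe set varied, 9 of 10 epidermal and 6 of 8 measured lymphocyte genes. The mean of 4 adipocyte genes also ranged widely, from 7.59 to 8.82 in knockouts and 7.07 to 9.17 in wild types. The 5 arrays left out below are those named here for hair, epidermal or lymphocyte genes. Wild type 5, at 8.47 for adipocyte genes, was kept. In bulk tissue, fewer cells of a type and less RNA per cell cannot be told apart.

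No member passed the test between the genotypes, and most lay slightly lower in knockouts. Of the 23 member probe sets, 14 from 8 genes varied and 9 were low-variation. With limma, 0 of the 23 passed an adjusted p of 0.05, where 0.191% of all probe sets did, and 0 had an unadjusted p under 0.05, where 6.62% did. The smallest unadjusted p of a member was 0.0601, for a Map1lc3a probe set. Of the 14 that varied, 13 lay lower in knockouts, with a median difference of −0.09, while 50.8% of all varying probe sets lay lower, with a median of −0.0021. The 14 share arrays and several share a gene, so they are not 14 separate observations. No member was without overlap between the genotypes, where 3.96% of varying probe sets were.

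One array carried much of the spread. Wild type 1 was the lowest of the 10 arrays in 9 of the 14 varying member probe sets, and it was the lowest in 25.2% of all varying probe sets. Its median deviation from the mean of all arrays over the 14 was −0.27. Wild type 2 was the highest array in 6 of them and wild type 5 in 5, against 12.1% and 5.52% of all varying probe sets. The knockout arrays lay between these wild types, with median deviations from −0.12 in knockout 4 to 0.06 in knockout 1. Wild type 1 is also the array with the highest hair genes, and their part in these values was not tested. Because of this array, differences of the varying members are also given without it, a choice made after values had been seen. Without it, 0 of the 23 passed the adjusted threshold and 5 had an unadjusted p under 0.05, all lower in knockouts, where 3.5% of all probe sets were called that way. Among the varying ones these were 4 of 14, all of Map1lc3b and Gabarapl1, against 5.27% of all varying probe sets. The median difference was −0.14 against −0.01. No overlap, with knockouts lower, was then seen in 2 member probe sets, both of Gabarapl1, against 1.79% of varying probe sets. Leaving out a wild type that was the lowest array raises the wild-type mean and so moves the difference toward lower knockouts. The counts without wild type 1 thus follow in part from the choice of array, and no conclusion is drawn from them.

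**Figure D1:**
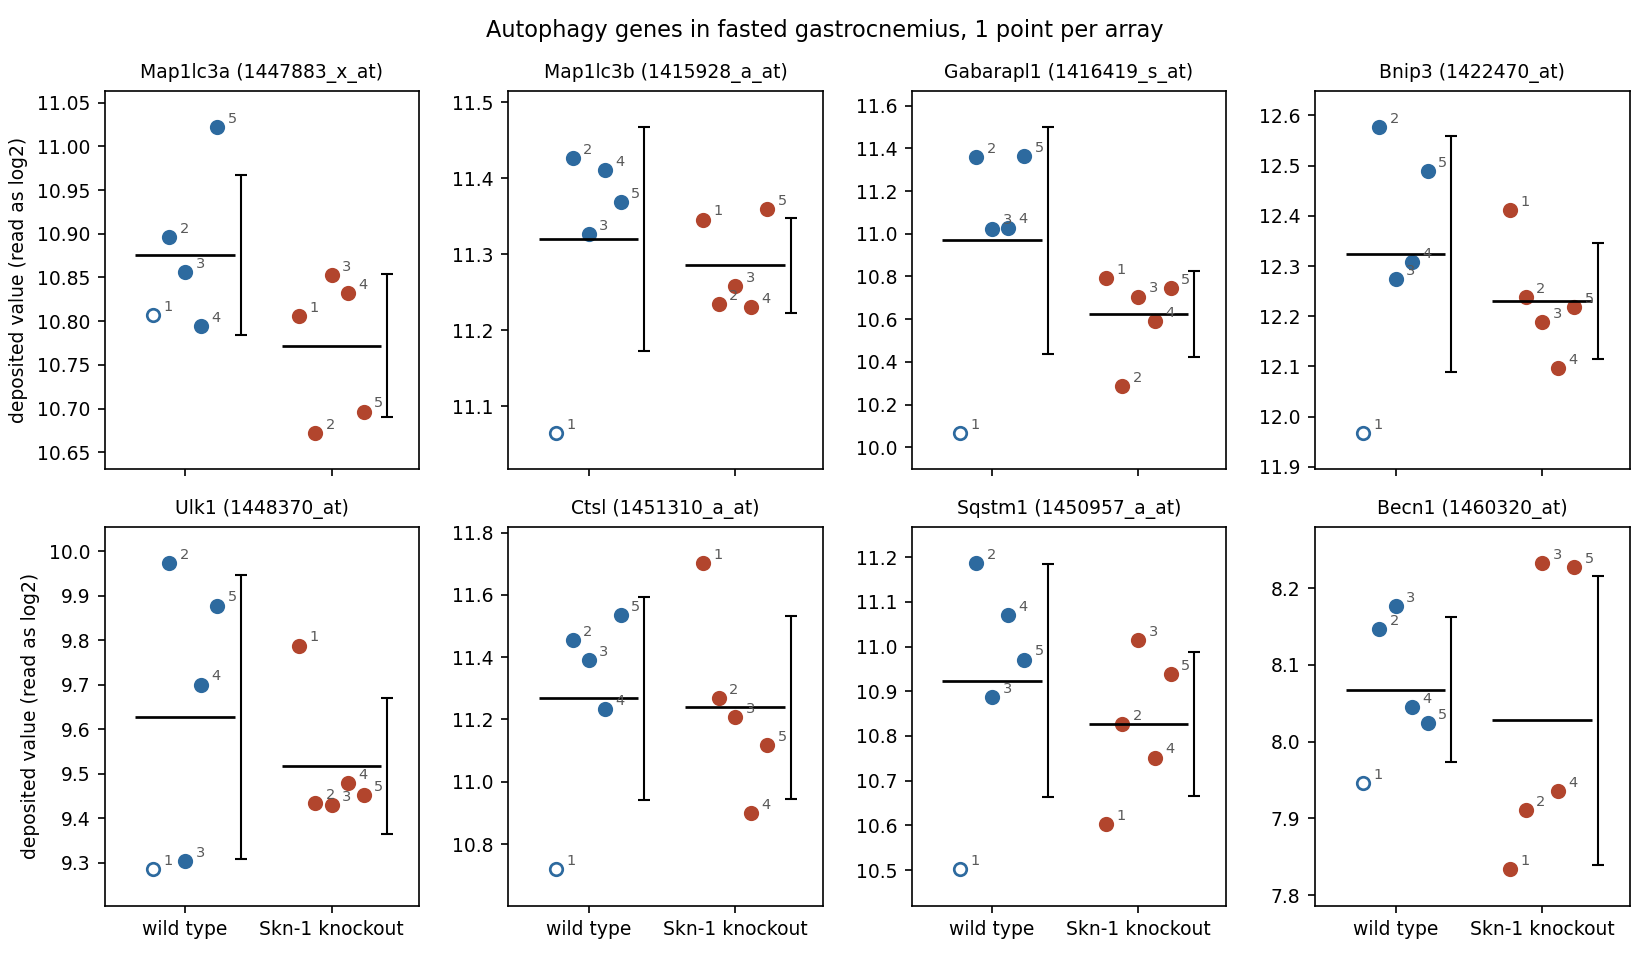
Deposited values (y axis, read as log2, a scale of its own in each panel) of the 8 members with a varying probe set, for wild type and Skn-1 knockout (x axis). Points are single arrays with their replicate number, horizontal lines are means, error bars are SDs (n = 5) and the open symbol is wild type 1, the lowest array for Gabarapl1 at 10.07, Bnip3 at 11.97 and Ctsl at 10.72.

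Ulk1 encodes the kinase that initiates autophagy and lies on chromosome 5. Its varying probe set, 1448370_at, read 9.79, 9.43, 9.43, 9.48 and 9.45 in knockouts 1 to 5 and 9.29, 9.97, 9.30, 9.70 and 9.88 in wild types 1 to 5. Knockout 1 stood above the other 4 knockouts, and the wild types fell into low and high arrays that enclosed the knockouts. The difference was −0.11 ± 0.15 (SE, 95% interval −0.46 to 0.24, limma adjusted p = 0.977), and −0.20 without wild type 1. The second Ulk1 probe set was low-variation at 7.04.

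Becn1, on chromosome 11, encodes Beclin 1 of the nucleation complex. Only 1 of its 5 probe sets varied, 1460320_at, with 7.83, 7.91, 8.23, 7.94 and 8.23 in knockouts and 7.95, 8.15, 8.18, 8.05 and 8.02 in wild types. The knockouts spread around the wild types, and the genotypes overlapped fully. The difference was −0.04 ± 0.09 (SE, interval −0.25 to 0.17, limma adjusted p = 0.991), and −0.07 without wild type 1. The other 4 Becn1 probe sets were low-variation at 5.92 to 8.86. Atg12, the ubiquitin-like protein that is joined to ATG5, had 3 probe sets, all low-variation at 5.96 to 7.82, so these arrays give no readable difference for it.

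Gabarapl1, a GABARAP-family ATG8 gene on chromosome 6, had the widest spread of the members. Its probe set 1416419_s_at read 10.79, 10.29, 10.71, 10.59 and 10.75 in knockouts and 10.07, 11.36, 11.02, 11.03 and 11.36 in wild types. Wild type 1 was the lowest of all 10 arrays, and each of the other 4 wild types lay above every knockout. Means were 10.62 ± 0.203 (SD, n = 5) in knockouts and 10.97 ± 0.530 (SD, n = 5) in wild types. The difference was −0.34 ± 0.25 (SE, interval −0.91 to 0.22, limma adjusted p = 0.931), which makes the wild-type level 1.27 times that of knockouts. Without wild type 1 it was −0.57 ± 0.13 (SE, interval −0.87 to −0.27), or 1.48 times, with an unadjusted p of 0.00274 and a limma adjusted p of 0.267.

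The second Gabarapl1 probe set, 1416418_at, repeated this order. It read 9.69, 9.36, 9.68, 9.46 and 9.73 in knockouts and 8.88, 10.31, 10.02, 9.99 and 10.34 in wild types. The difference was −0.32 ± 0.27 (SE, limma adjusted p = 0.945), and −0.58 ± 0.11 (SE, limma adjusted p = 0.182) without wild type 1. Both probe sets read the same RNA samples, so the second is no separate evidence for the mice. Without the 3 arrays that carried hair or lymphocyte genes (wild types 1 and 3 and knockout 5) the differences were −0.66 in both (limma adjusted p = 0.479 and 0.400). Without all 5 arrays with genes of other tissues (knockouts 1 and 4 as well) they were −0.75 and −0.69 (limma adjusted p = 0.837 for each). Neither probe set passed in any of the 21 alternatives run, and the size depended on wild type 1.

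Map1lc3b, on chromosome 8, encodes LC3B, the ATG8 protein most used as a marker of autophagosomes. Its probe set 1415928_a_at read 11.35, 11.23, 11.26, 11.23 and 11.36 in knockouts and 11.07, 11.43, 11.33, 11.41 and 11.37 in wild types. Wild type 1 was again the lowest array, and the remaining wild types overlapped the top of the knockouts. The difference was −0.03 ± 0.07 (SE, interval −0.19 to 0.12, limma adjusted p = 0.989). Without wild type 1 it was −0.10 (interval −0.18 to −0.01, limma adjusted p = 0.578).

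A second Map1lc3b probe set, 1415930_a_at, gave −0.08 ± 0.06 (SE, limma adjusted p = 0.947) and −0.13 without wild type 1, where its adjusted p was 0.573. The third, 1415929_at, gave −0.07 ± 0.11 (SE, limma adjusted p = 0.983) and −0.14 without wild type 1, with knockout 4 and wild type 1 lowest at 10.33 and 10.36 and all others at 10.50 to 10.86. The fourth was low-variation at 6.39. Map1lc3a, on chromosome 2, encodes LC3A and had the tightest values of the members. Its probe set 1451290_at read 9.52, 9.59, 9.64, 9.58 and 9.40 in knockouts and 9.67, 9.74, 9.58, 9.58 and 9.77 in wild types. Wild types 1, 2 and 5 thus lay above all knockouts and the others inside their range, and wild type 1 did not stand apart. The difference was −0.12 ± 0.06 (SE, interval −0.25 to 0.01, unadjusted p = 0.0601, limma adjusted p = 0.784), and −0.12 also without wild type 1. The other Map1lc3a probe set, 1447883_x_at, gave −0.10 ± 0.05 (SE, limma adjusted p = 0.840) and −0.12 without wild type 1, with knockouts at 10.67 to 10.85 and wild types at 10.79 to 11.02.

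Sqstm1, on chromosome 11, encodes p62, which links ubiquitin-marked cargo to ATG8 proteins and is itself degraded with it. Its probe set 1450957_a_at read 10.60, 10.83, 11.01, 10.75 and 10.94 in knockouts and 10.50, 11.19, 10.89, 11.07 and 10.97 in wild types. The lowest arrays were wild type 1 and knockout 1. The difference was −0.10 ± 0.13 (SE, interval −0.40 to 0.21, limma adjusted p = 0.977), and −0.20 without wild type 1. The other Sqstm1 probe set, 1444021_at, was the single varying member probe set that lay higher in knockouts, with 7.03, 6.45, 6.83, 6.84 and 6.49 against 6.24, 6.67, 6.46, 6.60 and 6.46. Its difference was 0.24 ± 0.13 (SE, interval −0.06 to 0.54, limma adjusted p = 0.853), and 0.18 without wild type 1. The 2 probe sets therefore disagreed in sign, and over arrays they were weakly related (r = 0.24, permutation p = 0.519; rho = 0.22, permutation p = 0.539; n = 10).

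Bnip3, on chromosome 7, encodes a receptor on the outer mitochondrial membrane that binds ATG8 proteins and so feeds mitochondria into autophagy. Its single probe set, 1422470_at, read 12.41, 12.24, 12.19, 12.10 and 12.22 in knockouts and 11.97, 12.58, 12.27, 12.31 and 12.49 in wild types. Wild type 1 was the lowest array and wild types 2 and 5 the highest. Means were 12.23 ± 0.115 (SD, n = 5) and 12.32 ± 0.235 (SD, n = 5). The difference was −0.09 ± 0.11 (SE, interval −0.35 to 0.17, limma adjusted p = 0.973), and −0.18 (interval −0.38 to 0.01, limma adjusted p = 0.684) without wild type 1.

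Ctsl, on chromosome 13, encodes cathepsin L, a lysosomal protease that rises in wasting muscle. Its probe set 1451310_a_at read 11.70, 11.27, 11.21, 10.90 and 11.12 in knockouts and 10.72, 11.46, 11.39, 11.23 and 11.54 in wild types. Knockout 1 was the highest of all arrays and wild type 1 the lowest, so the genotypes overlapped over most of the range. The difference was −0.03 ± 0.19 (SE, interval −0.46 to 0.41, limma adjusted p = 0.9996), and −0.17 without wild type 1. Its sign turned to positive in 5 of the fits that left out 1 array, so no direction can be read. The second probe set, 1457724_at, gave −0.09 ± 0.10 (SE, limma adjusted p = 0.965) and −0.15 without wild type 1, with knockouts at 6.46 to 6.89 and wild types at 6.59 to 6.99.

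**Figure D2:**
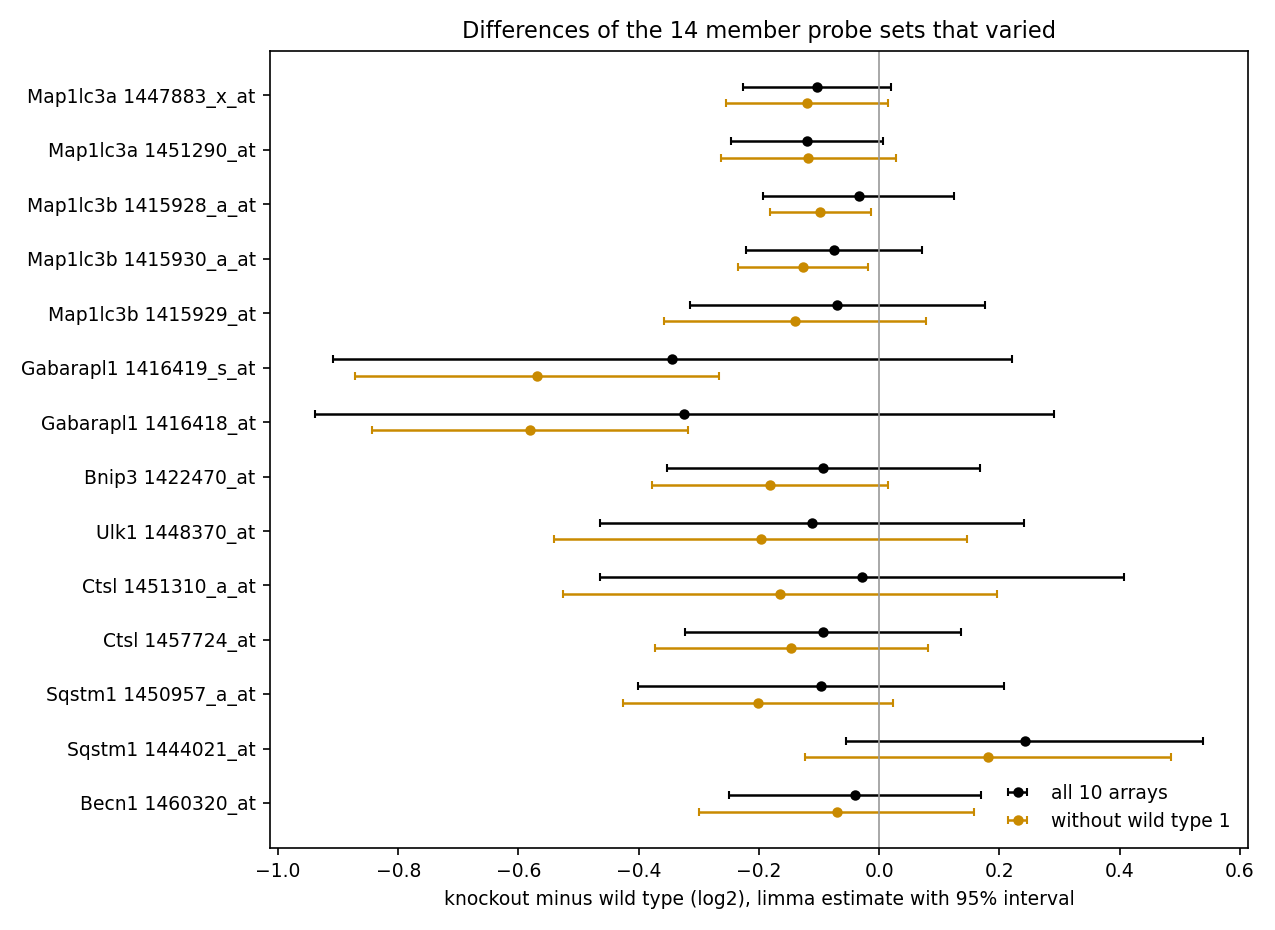
Knockout minus wild type (x axis, log2) for the 14 varying member probe sets (y axis), as limma estimates with 95% intervals, with all 10 arrays in black and without wild type 1 in orange. With all arrays every interval includes 0; without wild type 1 those of both Gabarapl1 probe sets and of Map1lc3b 1415928_a_at and 1415930_a_at lie below 0.

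By Pearson's r over all 10 arrays, 5 of the members were high or low together within the genotypes. Without wild type 1 this was weaker, and 0 of the 28 pairs then passed an adjusted permutation p of 0.05. Each of the 8 genes was represented by its varying probe set with the highest mean, the group means were removed, and all 28 pairs were correlated over the 10 arrays. Of the pairs, 26 had a positive r, with a median of 0.57, and 9 passed an adjusted permutation p of 0.05 by Pearson's r. Over all pairs of the 3846 genes with a varying probe set 51.3% had a positive r, with a median of 0.02. An r over 0.7 was found in 11 of the 28 member pairs, against 6.99% of all pairs, and without wild type 1 in 3 of the 28, against 6.80%. These shares are a description, with no test of whether co-variation is particular to the members. By Spearman's rho 0 pairs passed, the smallest adjusted permutation p being 0.0794, and 10 had an unadjusted p under 0.05. The 9 pairs were all those among Map1lc3b, Gabarapl1, Bnip3, Ulk1 and Ctsl except Ulk1 with Ctsl (r = 0.68, rho = 0.59, permutation p = 0.0293 and 0.0802, adjusted p = 0.0653 for r). All arrays share their processing, and wild type 1 lies at the low end of most of these genes, so pooled values are given beside those without it.

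Bnip3 stood at the centre of this group. Bnip3 and Ctsl had r = 0.90 and rho = 0.79 (permutation p = 0.00049 and 0.00942, adjusted p = 0.0077 for r and 0.0794 for rho). Their r was 0.90 without wild types 1 and 2, the arrays farthest from the median of Bnip3, and 0.80 without wild type 1 alone. Bnip3 and Ulk1 had r = 0.87 and rho = 0.81 (permutation p = 0.00055 and 0.00755, adjusted p = 0.0077 for r and 0.0794 for rho), with r = 0.77 without the 2 farthest arrays and 0.84 without wild type 1. Bnip3 was thus high in the mice where Ulk1 and Ctsl were high, also when wild type 1 was set aside, although 9 arrays then left no pair past the adjusted threshold.

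Pairs of the ATG8 genes rested more on that array. Map1lc3b and Gabarapl1 had the highest r of all, 0.91 (permutation p = 0.0012, adjusted p = 0.0112), with rho = 0.75 (permutation p = 0.0170, adjusted p = 0.0794). It was 0.71 without knockout 4 and wild type 1, and 0.59 without wild type 1 alone. Gabarapl1 and Bnip3 had r = 0.86 and rho = 0.77 (permutation p = 0.00181 and 0.0125, adjusted p = 0.0127 for r and 0.0794 for rho), with 0.91 without knockout 2 and wild type 1 and 0.61 without wild type 1 alone. Map1lc3b and Ctsl had r = 0.74 (permutation p = 0.0152, adjusted p = 0.048) and rho = 0.48 (permutation p = 0.168, adjusted p = 0.336). Without knockout 4 and wild type 1 that r was 0.20, so this relation rests on those arrays. The other 4 pairs that passed, Map1lc3b with Bnip3 and Ulk1 and Gabarapl1 with Ulk1 and Ctsl, had r from 0.71 to 0.85 and rho from 0.70 to 0.76 with all arrays (permutation p from 0.00287 to 0.0298). Their r was 0.53 to 0.75 without the 2 farthest arrays and 0.37 to 0.65 without wild type 1. Without wild type 1, 0 of the 28 pairs passed the adjusted threshold (smallest adjusted permutation p = 0.0612) and 3 had an unadjusted p under 0.05, with 20 positive and a median of 0.25.

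Becn1 and Sqstm1 formed none of the pairs that passed. Sqstm1 had an r of 0.74 with Map1lc3b and 0.72 with Gabarapl1 (adjusted permutation p = 0.0515 and 0.0621), and 0.18 and 0.13 without wild type 1. Becn1 had an r of 0.07 with Bnip3, −0.02 with Ctsl and −0.16 with Ulk1 (permutation p from 0.638 to 0.955). Sqstm1 and Becn1 were related to each other with r = 0.67 and rho = 0.75 (permutation p = 0.0303 and 0.0164, adjusted p = 0.0653 and 0.0794), with r = 0.52 without knockout 1 and wild type 1 and 0.70 without wild type 1 alone. Different probe sets of 1 gene give a scale for these values. The Gabarapl1 probe sets had r = 0.99, those of Ctsl 0.83, the 3 pairs of Map1lc3b 0.73 to 0.81, and those of Map1lc3a 0.64 (adjusted permutation p from 0.00021 to 0.0597 over the 7 such pairs, Sqstm1 aside). Their rho ran from 0.59 to 0.90 (adjusted permutation p from 0.00637 to 0.0941), and r without the 2 farthest arrays was 0.97, 0.72, 0.38 to 0.55 and 0.75.

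**Figure D3:**
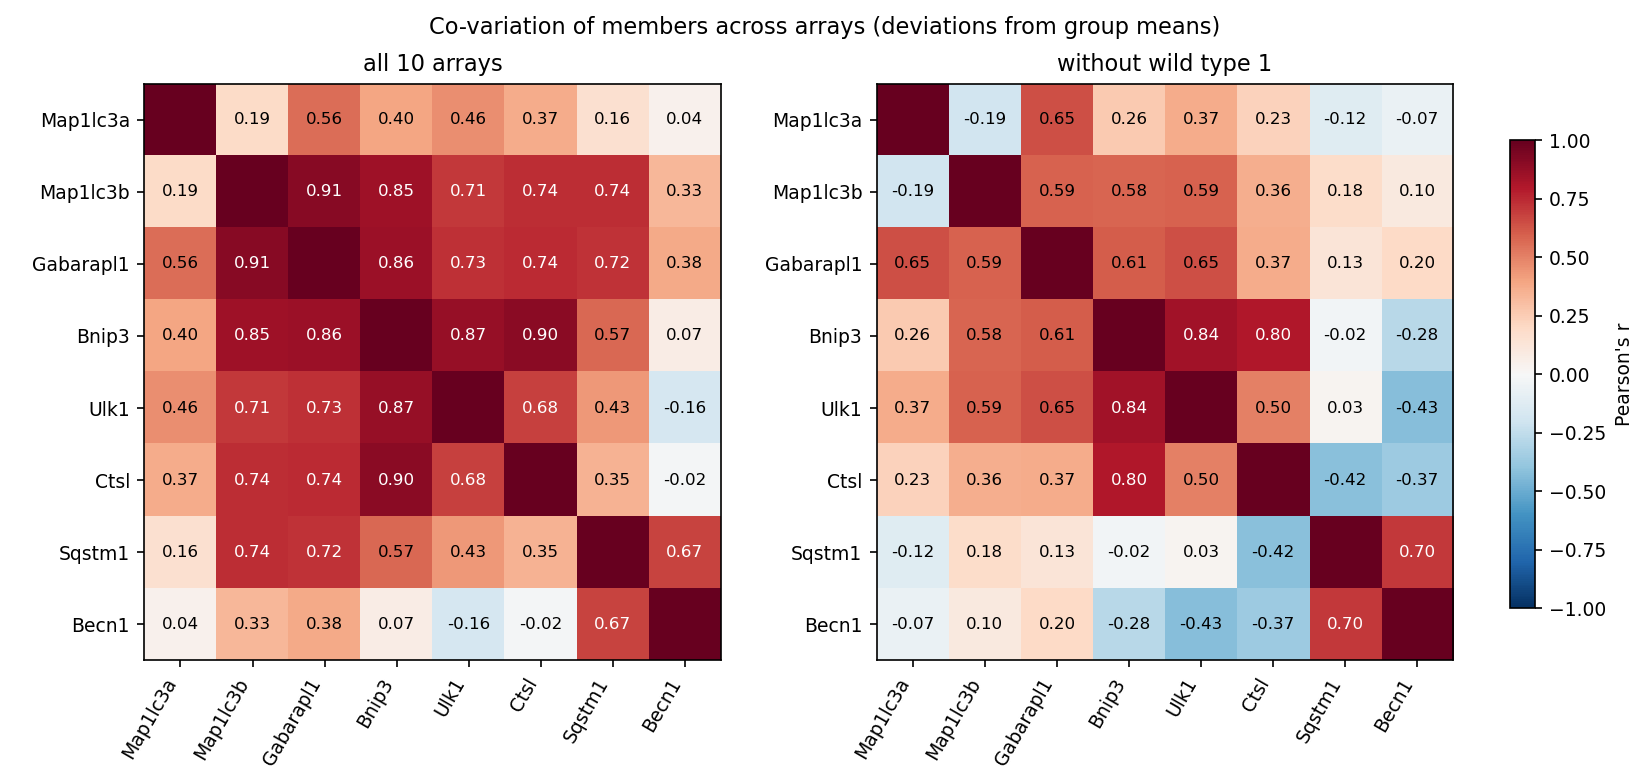
Pearson's r between the 8 members with a varying probe set (rows and columns) over arrays, after removal of group means, with all 10 arrays on the left and without wild type 1 on the right. Bnip3 with Ulk1 and Ctsl stays at 0.84 and 0.80 on the right, where Map1lc3b with Gabarapl1 drops from 0.91 to 0.59.

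The stretch before the listed start was read for the pair with the highest r outside the ATG8 genes, Bnip3 and Ctsl. It was also read for Gabarapl1, the member with the widest spread. The sequences are the 250 bases upstream in the RefSeq promoter table (GRCm38.p6), 5′ to 3′ on the strand of the gene, and capitals mark CACGTG, an E-box. Gabarapl1 lies at chr6:129532942-129533191 on the plus strand, Bnip3 at chr7:138909507-138909756 on the minus strand and Ctsl, at the start the table gives for it, at chr13:64370521-64370770 on the minus strand. The Ctsl window ends in a run of T and C followed by cag, letters that also mark the end of an intron. Whether it lies before a first exon was not checked, so it may not be a promoter.
Gabarapl1: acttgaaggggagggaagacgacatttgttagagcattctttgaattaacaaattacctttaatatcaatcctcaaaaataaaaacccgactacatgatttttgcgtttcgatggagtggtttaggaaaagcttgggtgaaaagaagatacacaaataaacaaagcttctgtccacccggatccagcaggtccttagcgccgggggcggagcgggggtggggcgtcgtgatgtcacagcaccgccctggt
Bnip3: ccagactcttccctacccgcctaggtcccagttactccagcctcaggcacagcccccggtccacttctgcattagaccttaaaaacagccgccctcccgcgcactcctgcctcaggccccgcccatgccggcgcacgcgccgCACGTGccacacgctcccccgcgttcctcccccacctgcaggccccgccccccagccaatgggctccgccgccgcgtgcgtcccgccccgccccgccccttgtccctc
Ctsl: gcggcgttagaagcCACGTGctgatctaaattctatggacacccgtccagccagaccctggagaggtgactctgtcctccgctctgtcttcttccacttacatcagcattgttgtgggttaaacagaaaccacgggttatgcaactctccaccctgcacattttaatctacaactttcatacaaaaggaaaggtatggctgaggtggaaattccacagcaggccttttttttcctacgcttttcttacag
CACGTG was present before 2 of the 6 members in the table (Ulk1, Gabarapl1, Bnip3, Map1lc3b, Sqstm1 and Ctsl), counting the uncertain Ctsl window. Its first base lay 108 bases before the start of Bnip3 and 236 before the start listed for Ctsl. It was present in 6.02% of all 32851 stretches of this length. The shorter core of hypoxia-responsive sites, ACGTG, which CACGTG contains, was found before the same 2 genes and in 16.6% of all. The FoxO core GTAAACA was found in 0 of the 6 windows and in 3.17% of all, and the TFEB core TCACGTGA in 0 of the 6 and in 0.785% of all. Both strands were searched, and the absence of these letters from a window says nothing about the factor. CACGTG was not among the motifs planned for this search, and Bnip3 and Ctsl were picked for printing by their r. The counts are a description with no test.

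Genes that tracked a member most closely were named for the 3 members with the largest SD, by r over the 10 arrays. They were picked among 4482 probe sets of other genes, each assigned to 1 gene and with an SD over 0.1. Clone and predicted names were skipped. The genes were chosen for their r, so no test is given. For Gabarapl1 they were Tbc1d15, a GTPase-activating protein for Rab7, at r = 0.98, Cpeb4 at 0.96, Ctnna1 at 0.96, Kdm3a at 0.95 and Adprm at 0.95, with 0.78 to 0.90 without wild type 1. For Ctsl they were Ctps2 at 0.95, Ccng2 at 0.94, another probe set of Tbc1d15 at 0.94, Lpin2 at 0.93 and Slc43a2 at 0.93, with 0.86 to 0.92 without it. For Ulk1 they were Garem1, Prrc1 and Kmt2c at 0.97 and Rere and Osbpl1a at 0.95, with 0.94 to 0.96 without it. The 3 probe sets of Tbc1d15 did not show 1 direction. In 1416061_at the difference was −0.23 (limma adjusted p = 0.939) and in 1416060_at −0.20 (limma adjusted p = 0.945), or −0.40 and −0.33 without wild type 1. The probe set named for Ctsl, 1416062_at, differed by 0.62 ± 0.15 (SE, limma adjusted p = 0.312) and by 0.50 without wild type 1, with knockouts at 7.55 to 8.07 and wild types at 6.62 to 7.34, without overlap.

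The other autophagy genes gave no call, and their varying probe sets lay to either side of 0. Lists of 89 genes in 10 steps of the pathway held 86 measured genes with 198 probe sets, of which 62 from 34 genes varied. With limma 0 of the 198 passed the adjusted threshold and 18 (9.09%) had an unadjusted p under 0.05, where 6.62% of all probe sets did. Of the 62 that varied 29 lay higher and 33 lower in knockouts, with a median of −0.0074, and 44 lay lower without wild type 1, with a median of −0.06. None of the 23 probe sets of the conjugation machinery and none of the 17 of other mitophagy genes, Pink1 among them, varied.

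Among these lists, the regulators of autophagy held the widest differences. Of their 22 varying probe sets 13 lay higher and 9 lower, with a median of 0.10. Without wild type 1, 10 lay lower and the median was 0.04. The 22 came from 10 genes, so they are not separate observations. Most of the higher ones with all arrays were of Prkaa2, Deptor and Foxo1, and several of the lower ones were of Sesn1. Prkaa2 encodes the α2 catalytic subunit of AMPK, the energy-sensing kinase that phosphorylates ULK1. Its probe set 1429464_at read 8.93, 8.57, 8.77, 8.69 and 8.62 in knockouts and 8.38, 8.28, 8.05, 8.29 and 8.11 in wild types. Every knockout lay above every wild type. The difference was 0.50 ± 0.09 (SE, interval 0.30 to 0.69, unadjusted p = 0.000348, limma adjusted p = 0.0936), and 0.54 without wild type 1. It passed (adjusted p = 0.0153) where only varying probe sets were tested. Its other probe sets gave 0.29 ± 0.06 (SE, limma adjusted p = 0.176), also without overlap, and 0.11 ± 0.06 (SE, limma adjusted p = 0.857). The difference of 0.29 passed without wild type 4 (limma adjusted p = 0.0312).

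Deptor encodes an inhibitor of mTOR, the kinase that restrains ULK1 in fed cells. Its probe set 1453571_at read 8.98, 9.05, 9.44, 9.37 and 9.03 in knockouts and 8.68, 8.92, 8.76, 8.85 and 8.83 in wild types, without overlap. The difference was 0.37 ± 0.10 (SE, interval 0.13 to 0.60, limma adjusted p = 0.398), and 0.33 without wild type 1. The other 3 varying Deptor probe sets gave 0.25, 0.36 and 0.28 (limma adjusted p from 0.643 to 0.920), or 0.22, 0.29 and 0.19 without wild type 1, so all 4 lay on the same side and none passed. Foxo1, a transcription factor of the fasting response, differed by 0.21 to 0.26 in its 3 varying probe sets, and by 0.02 to 0.13 without wild type 1. Foxo3 differed by −0.02 and 0.01 in 2 probe sets, and by −0.14 and −0.13 without wild type 1, so 1 of them turned sign. These 5 probe sets of Foxo1 and Foxo3 had an unadjusted p of at least 0.274 with all arrays (limma). Zkscan3, also in the list, differed by −0.10 in 1415689_s_at and −0.07 in 1422551_at (limma adjusted p = 0.937 and 0.933). Without wild type 1 these were −0.17 and −0.12 (limma adjusted p = 0.0621 and 0.285), then with no overlap, as for Gabarapl1.

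Among the steps themselves differences were smaller. In initiation all 4 varying probe sets lay higher, with a median of 0.01, but without wild type 1 3 of the 4 lay lower, with a median of −0.0075. Rb1cc1, the FIP200 scaffold of the ULK1 complex, differed by 0.30 ± 0.09 (SE, limma adjusted p = 0.520), and by 0.29 without wild type 1. Atg101 of the same complex differed by 0.02 and −0.01. In nucleation Nrbf2 differed by −0.07 with and without that array. In membrane growth Vmp1 differed by 0.13 in 1423722_at, where the value was 0.04 without wild type 1, and by −0.0043 in a second probe set. Wipi1 differed by −0.04, and by −0.07 without it. Gabarap, the closest relative of Gabarapl1 in the lists, differed by −0.13 ± 0.09 (SE, limma adjusted p = 0.918), and by −0.10 without it.

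Of the cargo receptors 2 varying probe sets lay higher and 7 lower, with a median of −0.06, which was −0.17 without wild type 1. Wdfy3, which brings protein aggregates to autophagosomes, differed by 0.14 in 1427456_at (limma adjusted p = 0.321, without overlap) and by 0.02, with overlap, in its second varying probe set. Tax1bp1 differed by −0.20 in 1 probe set and by −0.01 in the other. In fusion Rab7, the late endosome GTPase, differed by −0.10 in 1448159_at and by 0.04 in 1415734_at, so its probe sets disagreed in sign. Epg5 differed by 0.03, and by −0.0017 without wild type 1. Of the lysosomal genes 7 varying probe sets lay higher and 12 lower with all arrays, and 2 and 17 without wild type 1. Npc1, which exports cholesterol from lysosomes, differed by −0.27 (unadjusted p = 0.0491, limma adjusted p = 0.752), and by −0.35 without wild type 1. Atp6v1h, of the proton pump, differed by −0.15 and −0.07 in its 2 varying probe sets, and by −0.20 and −0.15 without it.

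Macrophages are rich in lysosomal proteases, and the mean of 9 macrophage genes was 8.03 to 8.65 in knockouts and 7.86 to 8.88 in wild types, lowest in wild type 1. The mean of 8 slow fibre genes was 9.70 to 10.05 in knockouts and 9.80 to 10.27 in wild types, highest in wild type 2. With the slow fibre mean as a covariate 0 members passed (limma, 0 at an unadjusted p under 0.05). The mean of endothelial genes, for the 4 of 6 whose brightest probe set varied, was 8.10 to 8.21 in knockouts. In wild types it was 8.19 to 8.47, highest in wild types 2 and 5. The mean of fibroblast genes, 5 of 5 measured, was 9.87 to 10.21 in knockouts and 9.59 to 10.04 in wild types. It was lowest in wild type 1. The part of macrophage, endothelial and fibroblast genes in the members' values was not tested.

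**Figure D4:**
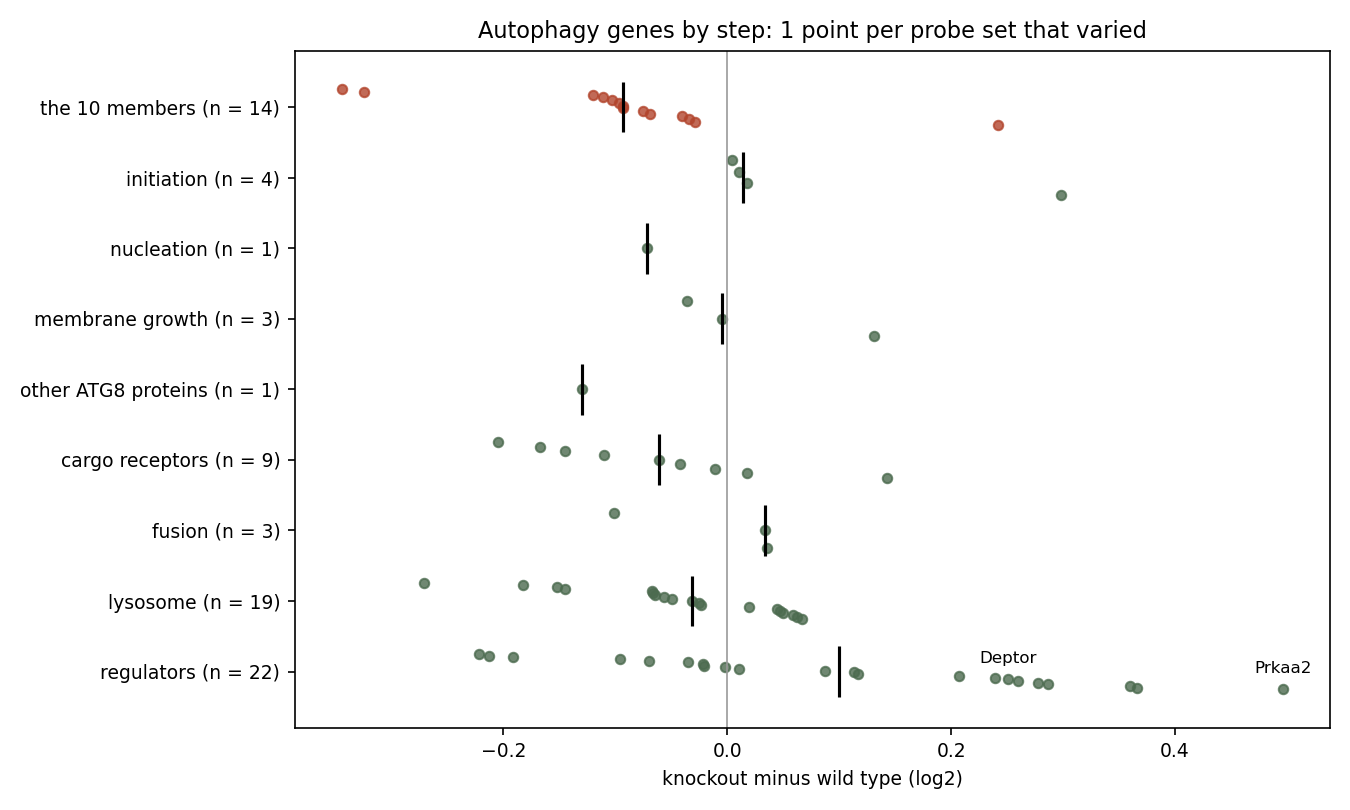
Knockout minus wild type (x axis, log2) for each varying probe set of the 10 members (red) and of 8 lists of other autophagy genes (green), by step (y axis), with vertical bars at medians. The members have a median of −0.09 and the regulators of 0.10 (0.04 without wild type 1), with Prkaa2 at 0.50 as the point farthest from 0, and the labels mark the highest Prkaa2 and the lowest Deptor point.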

How the data were processed

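The deposited value table of 10 arrays (45101 rows) was used, without its 64 array controls. Per the labels' protocols, 100 ng of total RNA from a Trizol and column extraction was labelled by 3′ IVT. The deposited log2 values are the authors' processed values; their normalization and log base are not given in the sources used, so log2 is read from the range and folds rest on it. The number of arrays limits precision, and the labels call the samples biological replicates without giving batches or scan dates.

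Gene names came from the platform annotation, updated through a RefSeq gene table (GRCm38.p6). Of the probe sets, 34945 had 1 gene, 932 several and 9160 none, and 34741 of the first kind matched the table. Promoters came from the RefSeq promoter table, which held 6 of the 10 members.

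Genotypes were compared per probe set with limma 3.58.1 in R 4.3.3 (lmFit, eBayes without trend), two-sided, with Benjamini-Hochberg adjustment over all 45037 probe sets. Intervals are 95%. Co-variation was tested by two-sided permutation with 100000 resamples, adjusted over 28 pairs. Both were tested on simulated data, the permutation on values without group means removed. In the permutation the deviations from group means were shuffled freely over all arrays. Such deviations are not independent within a group, so these p may be too small and pairs near the threshold are uncertain. Text and figures name all members with an SD over 0.01. From each pathway list they name genes past the threshold or, with none, the 2 genes with the smallest p, and for 3 members the 5 genes most like each; other probe sets of genes so named are given where they bear on it. Foxo1, Foxo3 and Zkscan3 are given outside this rule. The members and gene lists were chosen with earlier results of these data known.

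Alternatives changed normalization, moderation, filters, array weights, a covariate and the probe set per gene, added the replicate number as a block, or left out arrays. Whether same-numbered arrays deviate together was checked: correlations of their deviations ran from −0.40 to 0.32. Knockouts 1 and 2 were closest to the wild type of their own number, and knockouts 3, 4 and 5 were not. The labels give no pairing, and such correlations cannot show whether the numbers mark shared litters or processing. Python 3.11.15, numpy 2.4.6, pandas 2.3.3, scipy 1.17.1 and matplotlib 3.10.9 were used.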

Additional observations from a re-analysis of the deposited data

Results flagged for a closer look

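In 7 of the 66 groups of 5 arrays examined, 1 array stood apart from the other 4 by Dixon's criterion at 95%, where chance gives about 1 in 20. Wild type 1 was the low array in 5 of them. It read 10.07 against 11.02 to 11.36 in the other wild types for Gabarapl1 1416419_s_at, 8.88 against 9.99 to 10.34 for Gabarapl1 1416418_at, and 11.07 against 11.33 to 11.43 for Map1lc3b 1415928_a_at. For Deptor it read 7.03 against 7.40 to 7.55 in 1443579_s_at and 7.90 against 8.20 to 8.30 in 1451348_at. Wild type 1 also carried the highest hair genes, whose part in these values was not tested. Among knockouts, array 4 was low for Map1lc3b 1415929_at at 10.33 against 10.60 to 10.68, and array 1 was high for Ulk1 1448370_at at 9.79 against 9.43 to 9.48.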

How the results depend on the processing

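The count of 0 member probe sets past the adjusted threshold held in all alternatives run (limma), and so did the count of 0 member genes with the brightest or the mean probe set. At an unadjusted p under 0.05 the member count was 1 with array weights and 0 to 5 in the fits that left out 1 array (limma). It was 6 without the 3 arrays with hair or lymphocyte genes and 7 without the 5 arrays with genes of other tissues (limma). Both of these choices were made after seeing the data. The 5 (without wild type 1), the 6 and the 7 each include a low-variation probe set of Ulk1 and both probe sets of Gabarapl1. Without wild type 1, 3433 of all 45037 probe sets had such a p (limma). For the other settings named here the share over all probe sets is not given, so their member counts cannot be read as an excess. Over all probe sets 86 passed, against 43 after quantile normalization, 143 with varying probe sets alone, 42 with the slow fibre covariate, 31 to 57 in the fits that left out 1 array, 4 without the 3 arrays and 0 without the 5 (limma, fewer arrays). With the replicate number as a block 5 passed and 0 members did. Whether the numbers pair the mice is not known. In the pathway lists 1 probe set passed with a variance trend, with array weights and among probe sets above the median level, each time a low-variation one of Mitf, and 1 of Prkaa2 among varying probe sets alone; fits that left out 1 array gave 0 to 1. Of the 28 pairs of members 9 passed by Pearson's r, against 5 after quantile normalization, 10 on values without group means removed and 0 without wild type 1; by Spearman's rho these counts were 0, 4, 6 and 0. Among the members and the genes named by rule, the differences that turned sign under these alternatives were the following. Ctsl 1451310_a_at was 0.0128 with the slow fibre covariate and −0.165 to 0.0563 in the fits that left out 1 array. In those fits Becn1 ran from −0.0910 to 0.00847, Atg101 from −0.0435 to 0.0781, Wipi1 from −0.0830 to 0.0254, Rab7 from −0.158 to 0.00172 and Epg5 from −0.00165 to 0.0680. Without the 3 arrays Atg101 was −0.0823 and Epg5 −0.0316, and without the 5 Epg5 was −0.0490. The cause was not tested. Low-variation probe sets, among them all of Atg12, give no size of difference.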
